A study of Mus musculus with 4 samples.

Results

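Transcripts of 10 subunits of the BAF chromatin remodelling complex were followed in mouse ES-derived neurons. The members were taken by symbol from a list of subunits that are exchanged when neural progenitors become neurons, namely Smarca4, Smarcc1, Actl6a and Ss18 on the progenitor side and Smarca2, Smarcc2, Actl6b, Dpf1, Dpf3 and Ss18l1 on the neuronal side. All 10 were found among the 34968 symbols shared by the libraries, and all 10 were among the 12975 genes tested, which had at least 1 TPM (transcript level scaled for transcript length and library total) in at least 2 libraries. The cells were tdTomato+ neurons sorted by flow cytometry from embryoid bodies after 12 days of differentiation, a culture model of the medial ganglionic eminence (MGE). Both lines descend from one C57/BL6 Dlx6-Cre; Ai9 ES line, in which Cre from Dlx6 regulatory sequence switches on tdTomato in subpallial neurons. The line labelled N/D carries Nkx2-1, driven from Nestin sequence together with a tetracycline transactivator, and Dlx2 under the responsive promoter. The line labelled N/D/S carries V5-tagged St18 beside Dlx2 in addition. Clones were picked and expanded to make both lines, and how many clones stand behind the libraries is not stated, so line and clone cannot be told apart. Each line gave 2 libraries, numbered replicate 1 and replicate 2, and where values are given in a row they stand in the order of replicate 1 then 2 of N/D, followed by replicate 1 then 2 of N/D/S, as labelled. Whether they came from separate differentiations is not stated in the labels, so p-values measure the spread between these libraries only.

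BAF complexes use ATP to slide or evict nucleosomes, and several of their positions are filled by one member of a family at a time. In dividing neural progenitors the actin-related position holds Actl6a, the SS18 position holds Ss18 and the double PHD finger position holds Phf10 or Dpf2. As neurons leave the cell cycle, these give way to Actl6b, Ss18l1 (CREST) and Dpf1 or Dpf3, and the neuronal complex is known for its part in dendrite outgrowth. The ATPases Smarca4 (BRG1) and Smarca2 (BRM) and the scaffold subunits Smarcc1 and Smarcc2 change in proportion rather than being exchanged outright. REST in progenitors holds down miR-9 and miR-124, and both of these miRNAs act on the Actl6a transcript in neurons.

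Sequences are shown for the actin-related exchange, where the miRNAs act, and for the neuronal double PHD finger genes Dpf1 and Dpf3, which differed in level. The miRNA miR-9-3p (RefSeq, GRCm38.p6) is printed with its seed, bases 2 to 8, in capitals. The only match to that seed in the 3′ UTR of the transcript Actl6a-201 starts 38 bases after the stop codon, at chr3:32726640-32726646 (GRCm38, plus strand), and is in capitals in the target site.
mmu-miR-9-3p: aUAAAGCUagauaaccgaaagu
Actl6a target site: cacctcaacgtctgtAGCTTTAgt
miR-9-3p was not measured, since poly-A selected RNA was sequenced. Promoters are given as the 250 bases before the RefSeq start on GRCm38.p6, with matches to the letters CCAAT on either strand in capitals. The RefSeq starts of Actl6a, Actl6b and Dpf1 lie inside the GENCODE genes given later, so their windows overlap those genes.
Actl6a promoter, chr3:32708296-32708545, plus strand: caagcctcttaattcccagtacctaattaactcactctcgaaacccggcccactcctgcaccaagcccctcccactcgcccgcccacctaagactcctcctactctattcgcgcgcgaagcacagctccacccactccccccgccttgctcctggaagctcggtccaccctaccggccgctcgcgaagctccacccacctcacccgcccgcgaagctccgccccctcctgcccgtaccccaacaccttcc
Actl6b promoter, chr5:137553296-137553545, plus strand: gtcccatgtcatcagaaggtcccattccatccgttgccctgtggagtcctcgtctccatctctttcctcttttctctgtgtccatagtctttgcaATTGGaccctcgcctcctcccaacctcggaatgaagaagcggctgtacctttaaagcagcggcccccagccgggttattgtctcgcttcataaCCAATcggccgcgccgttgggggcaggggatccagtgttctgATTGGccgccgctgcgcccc
Dpf1 promoter, chr7:29303755-29304004, plus strand: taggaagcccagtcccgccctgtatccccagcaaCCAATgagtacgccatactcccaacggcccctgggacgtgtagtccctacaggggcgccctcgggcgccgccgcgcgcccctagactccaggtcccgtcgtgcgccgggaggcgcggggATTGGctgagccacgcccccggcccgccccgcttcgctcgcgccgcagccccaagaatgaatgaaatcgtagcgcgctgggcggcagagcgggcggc
Dpf3 promoter, chr12:83487737-83487986, minus strand: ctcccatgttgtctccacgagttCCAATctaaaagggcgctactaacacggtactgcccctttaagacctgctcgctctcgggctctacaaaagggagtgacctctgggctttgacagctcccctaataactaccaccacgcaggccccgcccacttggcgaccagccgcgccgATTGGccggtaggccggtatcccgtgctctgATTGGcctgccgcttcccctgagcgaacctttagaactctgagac
CCAAT, read on both strands, occurred 3 times before Actl6b, 2 times before Dpf1, 3 times before Dpf3 and 0 times before Actl6a. A promoter was found for 9 members, and 3 of the 9 held this motif, against 33.8% of 32851 promoters of the same length. GGGCGG, also read on both strands, occurred 3 times before Actl6a, 4 times before Dpf1, 1 time before Dpf3 and 0 times before Actl6b. It was found before 7 of the 9 members, against 32.7% of promoters. Matches to these motifs can share bases at their ends. TATAAA was found on neither strand in any of the 9, against 12.4% of promoters. These matches are letters in a window only.

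The libraries were first compared as a whole. N/D replicate 1 had 13426 of the shared symbols above 0, against 17118 to 20750 in the other libraries, and of 6139 genes at 10 TPM or more in all the others, 613 were listed at 0 there. The depth of the libraries is unknown, because TPM keep no read counts. St18, the factor added in N/D/S, measured 28.5 and 26.6 TPM in N/D, against 44.4 and 15.9 TPM in N/D/S. St18 thus did not separate the lines, and every direction given below between N/D and N/D/S rests on the labels of the libraries. Neuronal markers were present in every library, with summed levels of the 6 genes from 2962 to 4647 TPM, to which the tubulin Tubb3 gave 1509 to 2774 TPM. The 4 GABAergic markers measured summed to between 273.8 and 438.3 TPM. The 7 neural progenitor markers summed to 411.9, 1174, 489.9 and 696.2 TPM, of which Fabp7, a fatty acid binding protein of radial glia, gave 133.6, 906.5, 179.1 and 505.6 TPM. Without Fabp7, a choice made after seeing the data, the other 6 summed to 278.3, 267.8, 310.9 and 190.6 TPM. Of these 6, Vim and Pax6 were lower in both replicate 2 libraries, and Vim gave the most of the sum. Between the lines, 3 of the 7 markers had a log2 fold change above 0 and 4 below it. Of these markers 2, Hes5 and Notch1, were higher in both N/D/S libraries, against 8.69% of all genes tested. Both were listed at 0 in N/D replicate 1. Among the neuronal markers Tubb3 was likewise higher in both N/D/S libraries. Rbfox3, a neuronal marker, and Top2a, a marker of cycling cells, were lower in both, against 8.23% of all genes tested. The 6 markers of cycling cells summed to 86.1, 293.5, 157.0 and 157.0 TPM. The 4 pluripotency markers summed to 0.25, 20.1, 0.57 and 26.9 TPM. The 6 markers of astrocytes and oligodendrocytes were all listed at 0 in N/D replicate 1 and summed to 134.4, 13.0 and 47.2 TPM in the others. The 5 markers of endothelium, blood and microglia summed to 38.8, 8.89, 6.45 and 14.4 TPM. The pluripotency and glial sums were thus higher in both replicate 2 libraries than in both replicate 1 libraries, while among the progenitor markers this held for Fabp7 alone. In bulk RNA, fewer cells of a type and less RNA per cell cannot be told apart.

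Subunits of both the progenitor and the neuronal complex were detected in all libraries of sorted neurons, and none of the 10 was listed at 0 in any library. Ranked by mean log2(TPM + 1) over the libraries, Actl6b and Dpf1 came first, then Smarcc2, Smarcc1, Actl6a and Smarca4, then Smarca2, and last Ss18, Ss18l1 and Dpf3. Actl6b was above Dpf1 in 3 of 4 libraries, by 0.08 ± 0.29 (SD, n = 4) on the log2 scale, so this pair did not differ beyond its spread. The next step, from Dpf1 to Smarcc2, was 0.56 ± 0.52. Smarcc2, Smarcc1, Actl6a and Smarca4 stood within 0.02 to 0.10 of their neighbours, with SDs of 0.35 to 0.90. Smarca4 was 0.61 ± 0.94 above Smarca2, which is within the spread. The step from Smarca2 to Ss18 was 1.55 ± 1.19 and had the same direction in 4 of 4 libraries, unlike any other step. Ss18 and Ss18l1 differed by 0.12 ± 1.16, and Ss18l1 and Dpf3 by 1.03 ± 2.27.

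**Figure D1:**
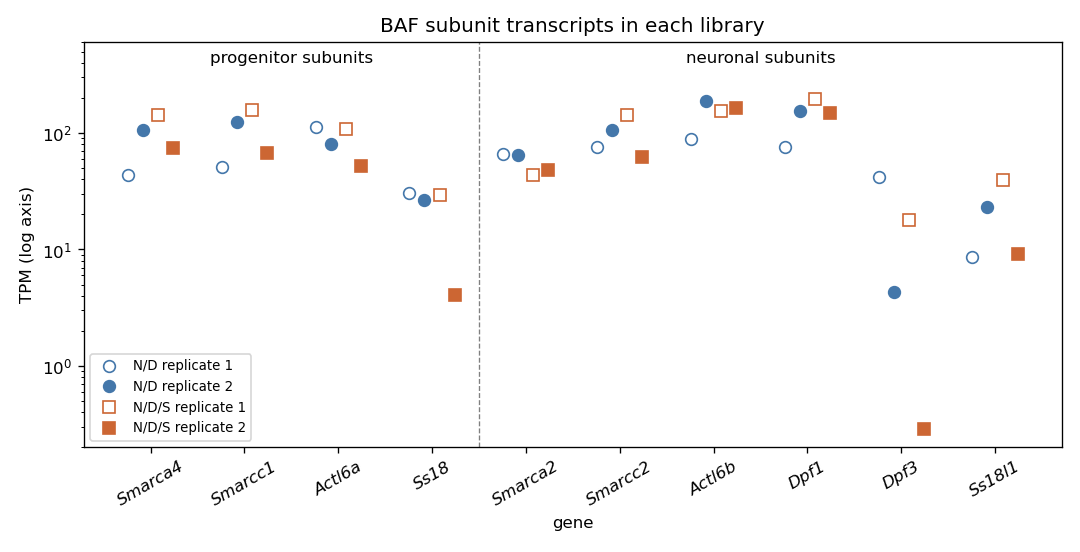
TPM of each subunit (log axis) in each of the 4 libraries, with circles for N/D, squares for N/D/S, open symbols for replicate 1 and filled symbols for replicate 2. Smarca2 is the only member whose N/D values, 65.0 and 66.3 TPM, all lie above its N/D/S values, 43.4 and 48.2 TPM, and Dpf3 has the widest range, from 0.29 to 42.3 TPM.

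At the actin-related position, the neuronal Actl6b exceeded the progenitor Actl6a in 3 of 4 libraries. Actl6b, on chromosome 5 (GRCm38) at 137553517 to 137569582, measured 88.2 and 189.8 TPM in N/D, against 155.9 and 164.7 TPM in N/D/S. The N/D/S values lay between the N/D values. Actl6a, on chromosome 3 from 32706298 to 32726973, had 113.6, 80.5, 108.1 and 52.4 TPM in the order given above. It was high in both replicate 1 libraries and low in both replicate 2 libraries, so that the lines overlapped. Its exons overlap those of Mrpl47 on the opposite strand, and whether the libraries keep strand is not stated in the sources used here. As a share of Actl6a and Actl6b together, Actl6b made 43.7%, 70.2%, 59.1% and 75.9%, or 57.0% ± 18.7 (SD, n = 2) in N/D and 67.5% ± 11.9 in N/D/S. Within each replicate number the N/D/S share was the higher, but the lines overlapped. The difference between the lines in log2 Actl6b minus log2 Actl6a was 0.65 (two-sided exact permutation p = 0.667). Leaving out N/D replicate 1 turned this difference to -0.15, and leaving out N/D/S replicate 2 gave 0.09. The share was higher in both replicate 2 libraries than in both replicate 1 libraries, and so were the pluripotency and glial marker sums and Fabp7, and their part in it was not tested.

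At the SS18 position the neuronal share ranged more widely than at the other positions. Ss18, on chromosome 18, encodes a subunit that anchors the ATPase module in progenitor BAF, and measured 30.3 and 26.4 TPM in N/D, against 29.2 and 4.10 TPM in N/D/S. N/D/S replicate 2 stood apart, 7.40-fold below the highest value. Ss18l1, the calcium-responsive neuronal paralog on chromosome 2 from 180042509 to 180070201, had 8.59, 23.3, 39.8 and 9.09 TPM in that order. Ss18l1 thus gave 22.1%, 46.9%, 57.7% and 68.9% of the transcripts at this position, or 34.5% ± 17.5 (SD, n = 2) in N/D and 63.3% ± 7.96 in N/D/S. Both N/D/S shares were above both N/D shares. The difference in log2 Ss18l1 minus log2 Ss18 was 1.65 (two-sided exact permutation p = 0.333, the smallest that 2 libraries against 2 can give). Between the libraries numbered 1, N/D/S minus N/D was 2.09 for Ss18l1 and -0.05 for Ss18 on the log2 scale, and between those numbered 2 it was -1.27 and -2.43, where the shared number is a name and is not known to pair libraries. Leaving out N/D replicate 1 gave a difference of 0.88.

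At the double PHD finger position neuronal and progenitor genes gave similar amounts of transcript, and Dpf1 was the higher neuronal gene in 4 of 4 libraries. Dpf1, on chromosome 7 from 29303951 to 29318243, with exons that overlap Gm44632 on the opposite strand, measured 75.6 and 153.8 TPM in N/D, against 197.0 and 149.8 TPM in N/D/S. N/D replicate 1 was low and the other libraries lay close together. Dpf3, on chromosome 12 from 83213745 to 83487716, had 42.3, 4.31, 17.9 and 0.29 TPM, so that both replicate 1 libraries were high and both replicate 2 libraries low. The residual SD of Dpf3 was 2.46 on the log2 scale, and 94.1% of tested genes had a lower one. Of the genes of the progenitor side, Dpf2 had 128.7, 99.1, 146.6 and 85.9 TPM, and Phf10 had 0.20, 34.6, 24.3 and 19.9 TPM, with its low value in the library in which many genes were listed at 0. Dpf1 and Dpf3 together made 47.8%, 54.2%, 55.7% and 58.6% of the sum of the 4 genes, or 51.0% ± 4.53 (SD, n = 2) in N/D and 57.2% ± 2.09 in N/D/S. The lines did not overlap, with a log2 difference of 0.36 (two-sided exact permutation p = 0.333). With N/D replicate 1 left out it was 0.17.

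Among the ATPases, Smarca2 was the member that varied least. Smarca2, on chromosome 19 from 26605050 to 26778322, with exons that overlap 4931403E22Rik on the opposite strand, measured 66.3 and 65.0 TPM in N/D, against 43.4 and 48.2 TPM in N/D/S. Both N/D/S values were below both N/D values, which held for 1 of the 10 members and for 8.23% of all genes tested. Values of N/D/S above both of N/D were found for 0 members and 8.69% of all genes, and either pattern for 16.9%. Its residual SD was 0.08 on the log2 scale, and 0.46% of tested genes had a lower one, against a median of 1.03 over all of them. On the log2(TPM + 1) scale N/D/S was at -0.51 relative to N/D (SE 0.95, adjusted p = 1.0 in limma after Benjamini-Hochberg). Its SE reflects the spread of all genes as well as that of Smarca2, since limma draws each variance towards a common value. Without the filter on low values the SE was 0.12 and Smarca2 had an unadjusted p of 0.0264 and an adjusted p of 1.0 in limma, where 207 of 23608 genes had an unadjusted p under 0.05. With each library left out in turn the difference ranged from -0.59 to -0.44. Its direction could not turn there, because the values of the lines do not overlap. Smarca4, on chromosome 9 from 21616169 to 21704230, with exons that overlap Gm27373 on the same strand, had 43.4, 105.6, 144.0 and 74.7 TPM, low in N/D replicate 1 and high in N/D/S replicate 1. Smarca2 made 60.4%, 38.1%, 23.1% and 39.2% of the ATPase transcripts, and the lines overlapped (difference of log2 levels -1.12, two-sided exact permutation p = 0.667). Within replicate 1 the difference was -2.31 and within replicate 2 it was 0.07. With N/D replicate 1 left out it was -0.47.

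The scaffold subunits Smarcc1 and Smarcc2 were present at similar levels in 3 of 4 libraries. Smarcc1, on chromosome 9 from 110117708 to 110240178, had 51.5, 123.4, 157.7 and 67.6 TPM, and its exons overlap those of Dhx30 on the opposite strand. Smarcc2, on chromosome 10 from 128459248 to 128490482, had 75.8, 106.4, 143.1 and 62.6 TPM. Both genes were highest in N/D/S replicate 1, and for both the lines overlapped. Smarcc2 made 59.5% of the pair in N/D replicate 1 and between 46.3% and 48.1% in the other libraries. The difference between the lines was -0.29 (two-sided exact permutation p = 1.0), and 0.09 with N/D replicate 1 left out. Over the 5 positions compared, the Benjamini-Hochberg adjusted p was 0.833 or above.

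**Figure D2:**
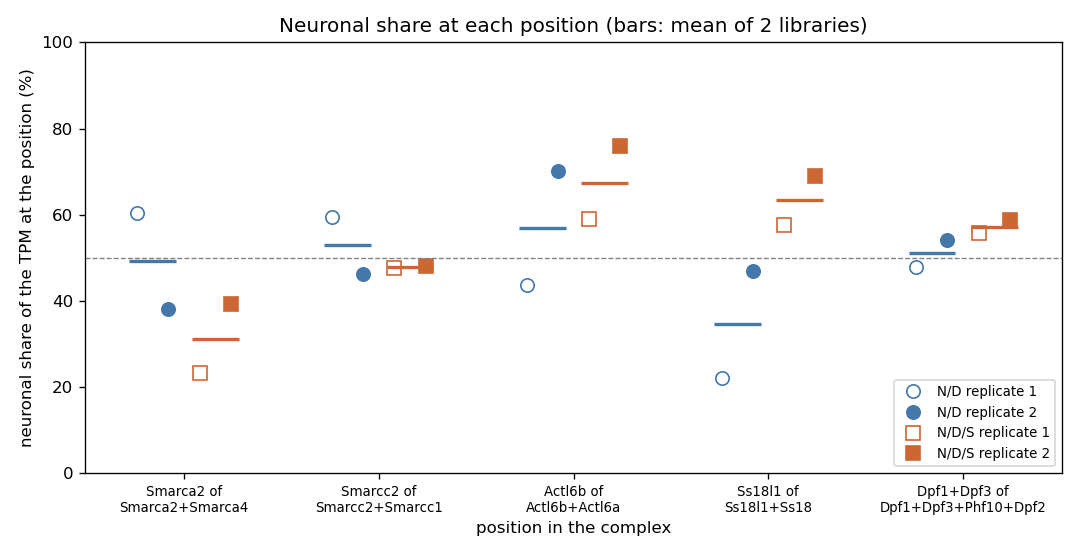
Share of the neuronal genes in the TPM of each position, in percent, for each library (circles N/D, squares N/D/S, open for replicate 1, filled for replicate 2), with a bar for the mean of the 2 libraries of a line and a dashed line at 50%. The N/D/S squares lie above both N/D circles for Ss18l1 (57.7% and 68.9% against 22.1% and 46.9%) and for Dpf1 with Dpf3 (55.7% and 58.6% against 47.8% and 54.2%), and overlap the circles at the other positions.

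The lines were then compared gene by gene. In limma, 0 of the 10 members and 0.0% of all genes tested had a Benjamini-Hochberg adjusted p under 0.05. At an unadjusted p under 0.05, 0 members passed, against 0.0617% of all genes, 0.0231% being higher and 0.0385% lower in N/D/S. The lowest unadjusted p from limma among the members was 0.327, for Ss18. The progenitor members had a median log2 fold change of 0.01 and the neuronal members of 0.19, against 0.26 for all tested genes, with 2 of 4 and 4 of 6 above 0. With 1 library left out these medians ranged from -0.55 to 0.57, from -0.48 to 0.59 and from -0.29 to 0.88, so none kept its direction, and after quantile normalization that of all genes was -0.05. The largest differences were those of Dpf3, at -1.62 (standard error 1.62, 95% interval -5.45 to 2.21), and Ss18, at -1.24 (standard error 1.18, interval -4.02 to 1.54). With N/D/S replicate 2 left out both turned, to 0.31 for Dpf3 and 0.05 for Ss18. Dpf1 at 0.67 (interval -1.69 to 3.02) and Smarca4 at 0.61 (interval -1.86 to 3.07) were the highest. With N/D replicate 1 left out, Dpf1 was at 0.16 and Smarca4 at -0.026, and with N/D replicate 2 left out they were at 1.17 and 1.24. The intervals of Actl6b, from -2.05 to 2.66, and Actl6a, from -2.71 to 2.03, are wide on both sides of 0. Of these 10 genes, only Dpf3 passed the adjusted threshold in any of the alternative fits, at -3.14 (adjusted p = 0.0380 from limma) with N/D replicate 2 left out, where every gene had the same standard error, 1.15, and 2373 genes passed.

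Within the replicate numbers the members followed the libraries. In replicate 2, 10 of 10 members had the lower value in N/D/S, as had 74.7% of all genes tested, while 25.2% had the higher. In replicate 1, 6 of 10 had the higher value in N/D/S, against 72.5% of all genes, and 4 of 10 the lower, against 27.0%. The 4 members with the lower value in N/D/S both times were Actl6a, Ss18, Smarca2 and Dpf3, against 17.9% of all genes. For these, the log2 differences were -0.07 and -0.61 for Actl6a, -0.05 and -2.43 for Ss18, -0.60 and -0.42 for Smarca2, and -1.20 and -2.04 for Dpf3 in replicate 1 and replicate 2. Of the 10 members, 7 had a residual SD below the median of all tested genes.

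**Figure D3:**
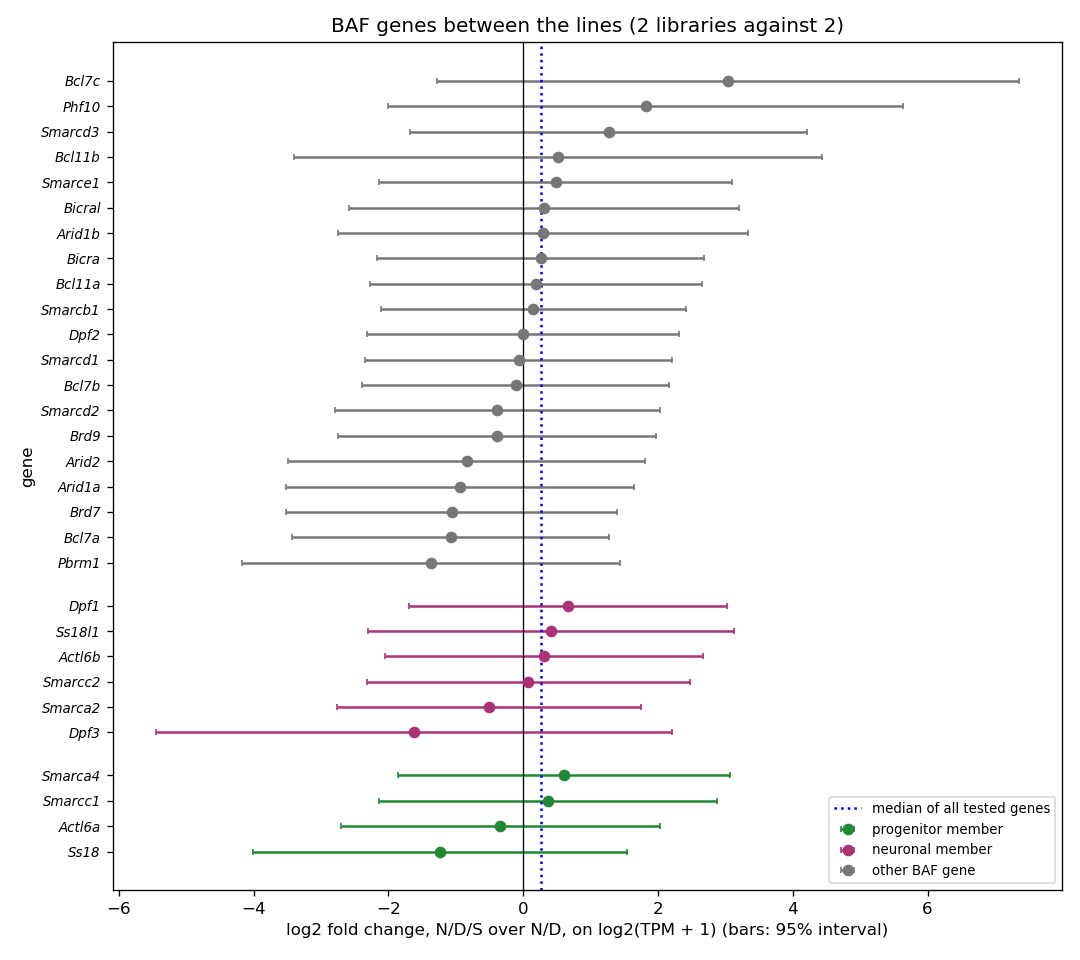
Difference in log2(TPM + 1), N/D/S minus N/D, for the progenitor members (green), the neuronal members (purple) and the other BAF genes (grey), with 95% intervals from limma as bars (2 libraries against 2) and the median of all tested genes, 0.26, as a dotted line. Every interval crosses 0.

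The other subunits of BAF complexes give the frame in which the exchange takes place. All 20 genes of this list were tested, 10 had a log2 fold change above 0 and 10 below it, and 0 passed the adjusted or the unadjusted threshold. Their median log2 fold change was 0.07, and ranged from -0.47 to 0.19 with 1 library left out. Smarcb1, a core subunit and tumour suppressor, was the steadiest, with 292.6 and 239.1 TPM in N/D and 301.3 and 284.9 TPM in N/D/S. The core subunit Smarcd1 had 55.5 to 78.2 TPM and overlapped between the lines. Its paralog Smarcd3, which serves tissue-specific complexes, had 30.3, 180.0, 102.8 and 314.4 TPM and was higher than Smarcd1 in 3 of 4 libraries. Smarce1, a DNA-binding core subunit, had 65.4, 250.5, 244.7 and 131.0 TPM. The large DNA-binding subunits were lower, with 3.73 to 17.8 TPM for Arid1a and 1.11 to 11.6 TPM for Arid1b. Bcl11a, a zinc finger subunit of neural BAF, had 21.0 to 63.5 TPM, and Bcl11b, which marks subpallial and deep cortical neurons, had 0.64, 45.4, 20.5 and 6.19 TPM. Bcl7a had 19.7 and 11.5 TPM in N/D and 8.97 and 4.83 TPM in N/D/S, the only gene of this list with values that did not overlap between the lines (1 of 20, lower in N/D/S, against 8.23% of all genes tested in that direction). Of the lowest values of the 20 genes, 9 lay in N/D replicate 1 and 10 in N/D/S replicate 2, where 58.2% and 29.2% of all tested genes had theirs.

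Factors known to act on the exchange, and genes linked to the neuronal complex in neurite outgrowth, were described last. Of the 7 regulators listed, 3 were measured. The symbols looked up for the host genes of the miRNAs were not found among those shared by the libraries. Rest, the repressor of neuronal genes, was low, with 0.0023 and 2.15 TPM in N/D and 1.07 and 0.32 TPM in N/D/S. Ptbp1, a splicing repressor of non-neuronal cells that is itself a target of miR-124, was listed at 0 in N/D replicate 1 and had 37.4, 34.7 and 31.5 TPM in the others. Its neuronal paralog Ptbp2 had 19.6, 91.6, 183.3 and 47.7 TPM across the libraries. Ptbp2 was above Ptbp1 in 4 of 4 libraries. Gap43, a growth cone protein, had 1180, 878.8, 1457 and 379.3 TPM, and Stmn2, a tubulin-binding protein of growing axons, had 1631, 852.9, 1175 and 606.2 TPM. The small GTPase gene Rap1a had 20.3 to 40.7 TPM. Ngef had 36.3, 5.78, 6.19 and 2.16 TPM, so that N/D replicate 1 stood above the rest. All 4 outgrowth genes had a log2 fold change below 0, from -1.74 to -0.39, as had 5008 of the 12975 genes tested, and 0 passed the adjusted or unadjusted threshold in limma. They overlapped between the lines.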

How the data were processed

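Poly-A selected RNA of sorted neurons was sequenced as paired-end reads. Per the labels and the study's methods, reads were pseudoaligned with kallisto 0.44.0, on GRCm38 and the lines compared with sleuth. The release of the annotation and the way transcripts were combined into genes are not given in the sources used here. The authors deposited 1 table per library of TPM for each gene symbol, without scaling between libraries, and depth is unknown. Symbols turned into dates (26 entries per file) were left out and the tables joined on symbol.

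Differences between lines were fitted with limma 3.58.1 in R 4.3.3 on log2(TPM + 1), 2 libraries against 2, without covariates, over genes that reached 1 TPM in 2 or more libraries, with p-values adjusted by Benjamini-Hochberg and called under 0.05. The fit was tested on simulated data, where it recovered changed genes at a small spread and called none at the spread of these libraries. Fold changes on this scale understate the change of low genes. Proportions at a position were compared within libraries, with exact permutation tests over libraries. Positions came from GENCODE M21 (GRCm38), sequences from RefSeq (GRCm38.p6) and GENCODE. Figures were made in Python 3.11.15 with matplotlib 3.10.9.

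The members and lists were chosen with earlier results of these data known. Genes named are the members, 11 of the other BAF genes in the main results (7 more are named in the closing section, after their values were seen), St18 as the added factor, the listed regulators and outgrowth genes, and the 3 genes with the profile nearest to that of Actl6b and of Actl6a. The markers Tubb3, Fabp7, Vim, Pax6, Hes5, Notch1, Rbfox3 and Top2a were singled out after their values were seen. Genes whose exons overlap a member are named for that reason. Motifs were chosen after the sequences were seen. Alternatives were pseudocounts of 0.1 and 0.5, 2 other filters, 3 scalings, a variance trend, replicate number as a block, and each library left out.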

Additional observations from a re-analysis of the deposited data

How the results depend on the processing

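Of 277 alternative values for 23 results, 249 were counted as unchanged, 18 changed direction, 8 moved and 2 newly passed the threshold. The 18 cover single genes and positions only, which counted as unchanged if direction, and for genes the call, held. Medians counted as unchanged if they moved by less than the spread, so their changes of direction are not among the 18. After upper quartile scaling the progenitor median went from 0.01 to -0.20 and the neuronal median from 0.19 to -0.02. The cause of these changes was not tested. With the variance trend, 5 genes were higher and 1 lower in N/D/S, no member among them. With one library left out, 0 to 2213 genes were higher and 0 to 160 lower, all of them without N/D replicate 2, in fits where the lone library of a line was assumed to vary like the others. In the same way Smarca4 ranged from -0.026 to 1.24, Smarcc1 from -0.25 to 0.99, Actl6a from -0.86 to 0.17, Ss18 from -2.52 to 0.046, Smarcc2 from -0.51 to 0.67, Actl6b from -0.24 to 0.85, Dpf1 from 0.16 to 1.17, Dpf3 from -3.56 to 0.31, Ss18l1 from -0.60 to 1.42, Phf10 from -0.63 to 4.26 and Dpf2 from -0.39 to 0.37, the median of the neuronal members from -0.48 to 0.59, that of the progenitor members from -0.55 to 0.57, that of the other BAF genes from -0.47 to 0.19 (-0.14 after upper quartile scaling and -0.27 after quantile normalization), and the differences of log2 levels at the scaffold position from -0.67 to 0.088 and at the actin-related position from -0.15 to 1.44. Without N/D replicate 2, Phf10 passed the threshold at 4.26 (adjusted p = 0.00322 from limma). Smarcc2 was -0.14 with upper quartile scaling, and Dpf2 0.077 with quantile normalization. Same-numbered libraries had a correlation of 0.02 in their deviations from the line means, which did not show that the numbers pair them, although files of one number also list equally many symbols, 35197 for replicate 1 and 35204 for replicate 2. With replicate number as a block, 0 genes were higher and 0 lower, and no call changed. The block cannot alter a log2 fold change in this balanced layout, nor can the variance trend, so Smarca2 stayed at -0.51 by construction. Both settings add such values to the 249. With at least 1 TPM in every library, Dpf3 and Phf10 were not tested. The median over all tested genes, 0.26, was 0.14 after upper quartile scaling, -0.05 after quantile normalization, -0.15 under the stricter filter just named, and -0.29 without N/D replicate 1 to 0.88 without N/D replicate 2. Depth is unknown, so its part in the low values of Dpf3 and Phf10 was not assessed.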

Other observations

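Subunits of the polybromo form of the complex differed in which library held their highest value. Pbrm1, its bromodomain subunit, measured 219.7 and 104.5 TPM in N/D, against 134.9 and 24.7 TPM in N/D/S. Brd7, another bromodomain subunit of that form, had 247.1, 99.2, 99.7 and 55.9 TPM in the same order. Both were highest in N/D replicate 1 and lowest in N/D/S replicate 2, and Arid2, the DNA-binding subunit of that form, followed the same order of libraries at its ends, with 16.1, 8.70, 13.6 and 2.53 TPM. Phf10, also found in that form, was instead lowest in N/D replicate 1. Of all tested genes, 21.2% had their highest value in N/D replicate 1, as had 5 of the 20 other BAF genes. Bcl7a and the members Actl6a, Ss18 and Dpf3 had the same ends, so the pattern was not particular to Pbrm1, Brd7 and Arid2. The share of all genes with both ends in these libraries was not counted. For Pbrm1, Brd7 and Arid2 the log2 fold changes of N/D/S over N/D were -1.37, -1.06 and -0.84, and each had a Benjamini-Hochberg adjusted p of 1.0 in limma. Bicra and Bicral, subunits of the noncanonical form, had 0 to 4.05 TPM, whereas Brd9 of the same form had 33.9 to 78.0 TPM. Bcl7c had 0.07 TPM in N/D replicate 1 and 43.4 to 91.3 TPM in the others, the largest ratio of highest to lowest among the BAF genes with no value at 0. Pbrm1, Brd7, Arid2, Bicra, Bicral, Brd9 and Bcl7c were named after their values were seen.

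Over the 4 libraries, the centred log2 profiles nearest to that of Actl6b were those of 9130401M01Rik, of Vamp2, a synaptic vesicle protein, and of Plxnb2, a semaphorin receptor, at root mean square distances of 0.008, 0.04 and 0.04. Nearest to Actl6a were Exoc3, an exocyst subunit, at 0.03, Tshz2 at 0.05 and Adal at 0.05. With so few libraries such nearness is common, since 266 genes lay within 0.2 of Actl6b and 358 within 0.2 of Actl6a.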
